A study of Mus musculus with 28 samples.

Results

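The arms of miR-582 (mmu-miR-582-3p and mmu-miR-582-5p) and mmu-miR-184-3p are 3 of the 1485 mature miRNA names counted in an infarction study of Hsd:ICR(CD-1) mice. They were chosen from the measured values, as the miRNAs called lower in left ventricles with myocardial infarction (MI) than in sham-operated ones, 21 days after an operation on postnatal day 1 (P1). The coronary artery (LAD) was tied off, or a sham operation done, on P1 or on postnatal day 7 (P7). Left ventricular wall outside the infarct (the remote zone) was collected after 3 days, when the mice were 4 or 10 days old, or after 21 days, when they were 22 or 28 days old. The 8 groups were MI P1, sham P1, MI P7 and sham P7 at each follow-up, with 4 libraries per group at 3 days and 3 at 21 days, 28 in all. The labels name no genetic change in any group, and they do not say that each library came from a different mouse, so each p-value reflects only how these samples spread. In such bulk tissue, fewer cells of a type and less RNA per cell cannot be told apart.

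A miRNA gene is transcribed into a hairpin, and cutting of the hairpin releases one short RNA from each arm, named 5p and 3p. One of these is loaded into an Argonaute protein and pairs with target mRNAs mainly through its seed, bases 2 to 8, lowering the translation and stability of the target. MiR-582 comes from a hairpin inside Pde4d, the gene of a phosphodiesterase that degrades cyclic AMP, and miR-184 is best known from the cornea and lens of the eye, the epidermis and the nervous system.

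The mature sequences, from RefSeq on GRCm38.p6, show that the 3 miRNAs, which one contrast chose together, share no seed. Capitals mark the seed.
miR-582-3p: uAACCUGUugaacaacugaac
miR-582-5p: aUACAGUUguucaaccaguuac
miR-184-3p: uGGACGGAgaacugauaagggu
The miR-582 arms lie on the plus strand at chr13:109324790-109324810 for 3p and chr13:109324753-109324774 for 5p, and miR-184-3p lies on the minus strand at chr9:89802263-89802284. Among 1679 mature mouse names in the RefSeq table, 0 others shared the seed of any of the 3. A run of 12 bases of miR-582-3p, in capitals below, is the reverse complement of a stretch of miR-582-5p, as in paired arms of a hairpin.
miR-582-3p: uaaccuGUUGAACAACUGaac

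The hairpins show how the arms are placed, with the annotated mature arms in capitals.
Mir582: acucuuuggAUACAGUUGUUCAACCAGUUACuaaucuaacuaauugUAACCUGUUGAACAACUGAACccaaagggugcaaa
Mir184: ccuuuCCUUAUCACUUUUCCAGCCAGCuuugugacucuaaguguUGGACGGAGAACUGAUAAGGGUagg
Mir582 (chr13:109324744-109324824) lay in an intron of Pde4d, on the same strand, in the GENCODE M21 annotation of GRCm38. Mir184 (chr9:89802260-89802328) overlapped no other gene there, and the nearest protein-coding genes were Ankrd34c at 63.8 kb and Rasgrf1 at 107.6 kb. No other miRNA gene was annotated within 50 kb of either hairpin. Each of the 3 miRNAs was counted under 1 hairpin only.

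Deposited counts summed to 1.29 to 13.0 M (M, 1e6) per library at 3 days and 18.2 to 26.9 M at 21 days. Levels are given as counts per M counts (CPM), scaled with TMM factors, which correct for differences in library composition. The 3-day and 21-day libraries were made with different kits, QIAseq and TruSeq, and their levels are never compared. At 21 days each group carried a single code in its sample titles, so a group and whatever that code stands for cannot be told apart. At 3 days the sham P1 libraries carried 2 codes, with replicates 1 and 2 under code 1078 and replicates 3 and 4 under code 1103, and these pairs stood apart across miRNAs. Muscle miRNAs were present as the tissue label says: all 5 cardiomyocyte miRNAs on the marker list were found, with sums of 55970 to 157386 CPM per library at 21 days and 88820 to 324311 CPM at 3 days.

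At 21 days after an operation on P1, all 3 miRNAs were several times lower in MI hearts than in sham hearts. MiR-582-3p, the miR-582 arm with more reads, stood at 31.0, 23.4 and 21.4 CPM in MI P1 hearts, against 188, 271 and 115 CPM in sham P1 hearts. MiR-582-5p stood at 4.14, 4.80 and 4.16 CPM in MI P1 hearts, against 32.9, 40.0 and 21.4 CPM in sham P1 hearts. MiR-184-3p stood at 1.79, 2.25 and 2.27 CPM in MI P1 hearts, against 7.00, 13.1 and 10.2 CPM in sham P1 hearts. The groups did not overlap for any of the 3, which the choice by these same libraries made likely. The share of all miRNAs that likewise did not overlap is not given here. The MI P1 hearts were closer to one another than the sham P1 hearts were.

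**Figure D1:**
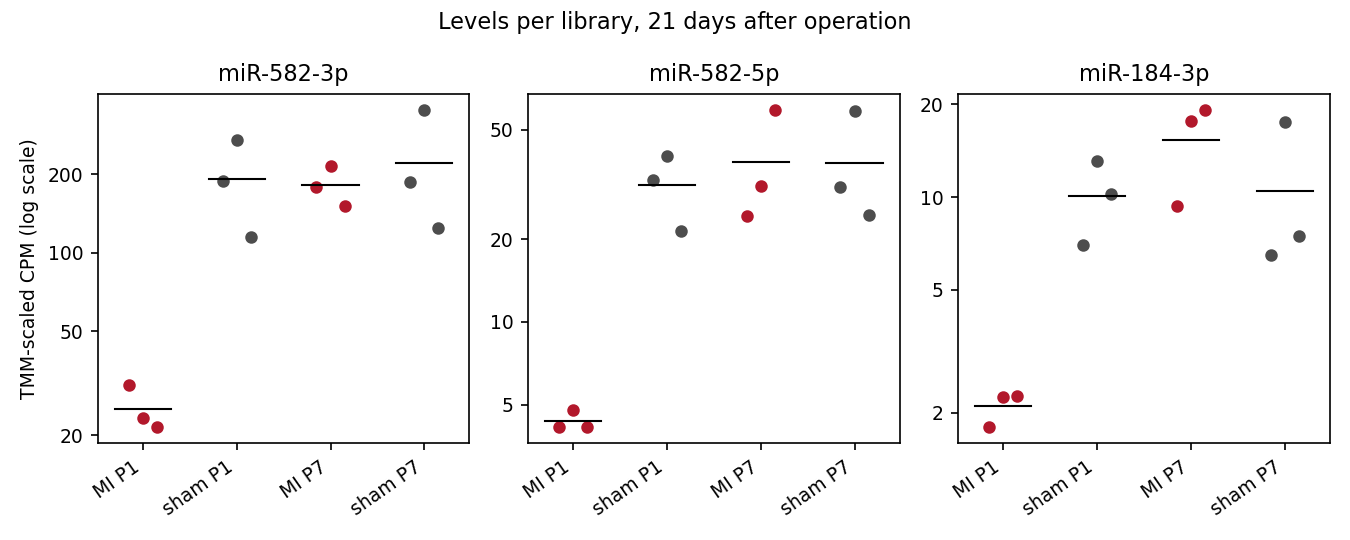
TMM-scaled CPM (y axis, log scale) of each miRNA in each library at 21 days, by group (x axis). Points are libraries, 3 per group, and lines are means. The MI P1 libraries lie below all 9 other libraries in each panel.

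The MI P1 mean of miR-582-3p was 25.3 ± 5.06 CPM, against 191 ± 78.2 CPM in sham P1 hearts (SD, n = 3 each), or 13.2% of the sham level. For miR-582-5p the means were 4.37 ± 0.379 CPM in MI P1 hearts and 31.4 ± 9.41 CPM in sham P1 hearts, or 13.9%. For miR-184-3p they were 2.10 ± 0.271 CPM in MI P1 hearts and 10.1 ± 3.07 CPM in sham P1 hearts, or 20.8%. Both arms of the miR-582 hairpin were thus low by about the same factor, and miR-184-3p by a smaller one. The read counts behind the low values were 394 to 502 for miR-582-3p, 67 to 81 for miR-582-5p and 29 to 42 for miR-184-3p per MI P1 library.

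These values chose the 3 miRNAs and are a description. The log2 fold changes in edgeR's fit to all 598 miRNAs tested at 21 days were -2.92 ± 0.38 (SE) for miR-582-3p, -2.85 ± 0.40 for miR-582-5p and -2.26 ± 0.40 for miR-184-3p. The adjusted p-values that selected them, from edgeR's quasi-likelihood test with Benjamini-Hochberg adjustment, were 0.00155, 0.00155 and 0.0143. The 3 were all that passed an adjusted p of 0.05, 0.502% of the miRNAs tested, and the median log2 fold change over all of them was -0.01. The smallest p-values just outside the threshold belonged to miR-3108-5p, at 0.156 CPM in MI P1 hearts and 0.518 CPM in sham P1 hearts, and miR-363-3p, at 0.627 and 1.44 CPM in the same groups, with log2 fold changes of -1.69 ± 0.47 and -1.19 ± 0.34 and an adjusted p of 0.383 for each. A lower point estimate than any of the 3 was that of miR-3473e, at -3.11 ± 1.53, whose SE was several times larger and whose mean was 0.147 CPM in MI P1 hearts and 1.39 CPM in sham P1 hearts.

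The 18 alternative settings reuse the libraries that chose the miRNAs, so passing again is a description and no further test. The miR-582 arms passed the threshold in all 18, and miR-184-3p in 13. Its log2 fold change lay between -2.44 and -2.02 when any 1 library of 21 days was left out. Its adjusted p in edgeR was 0.0953 without MI P1 replicate 1, 0.0648 without replicate 2, 0.0573 without replicate 3 and 0.142 with the sequencing lane number of the files as a covariate. The MI P1 library of lane 3 had 1.79 CPM of miR-184-3p, against 7.00 to 13.1 CPM in the sham P1 libraries, all of lane 3. In that lane miR-582-3p stood at 31.0 CPM in the MI P1 library, against 115 to 271 CPM in the sham P1 libraries, and miR-582-5p at 4.14 CPM, against 21.4 to 40.0 CPM, and lane 5 held no sham P1 library.

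**Figure D2:**
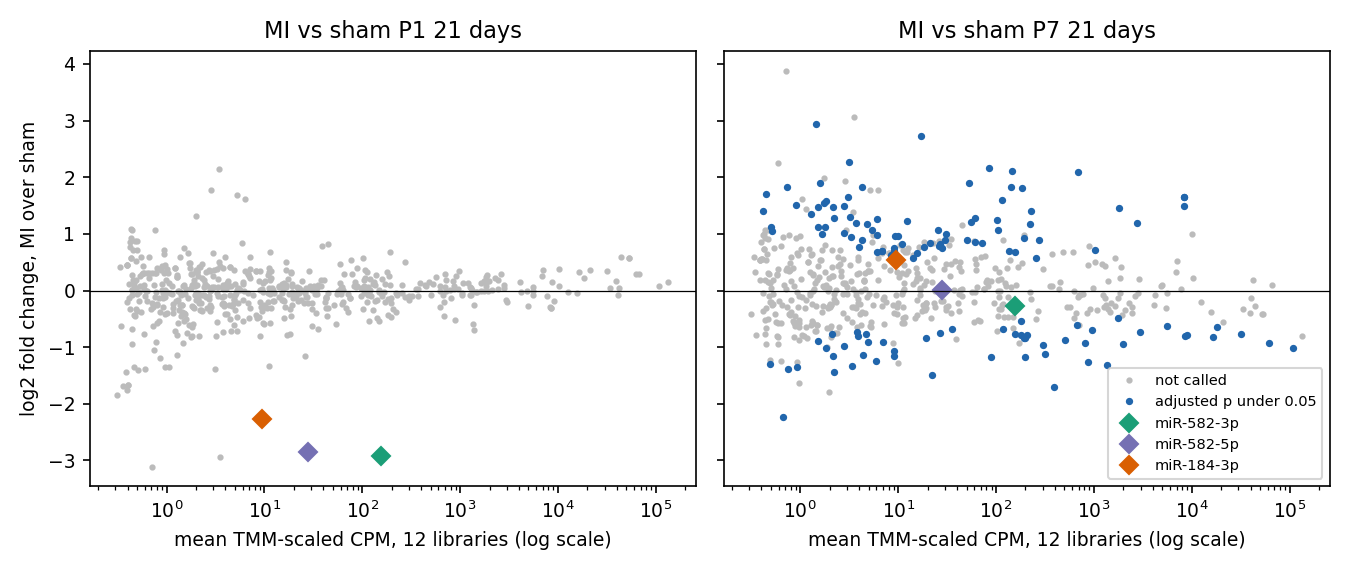
Log2 fold change of MI over sham (y axis) against the mean TMM-scaled CPM over 12 libraries (x axis, log scale) for 598 miRNAs at 21 days, after operation on P1 (left) and P7 (right). Diamonds mark the 3 miRNAs and blue points other miRNAs past an adjusted p of 0.05, of which the left panel has 0. The 3 diamonds lie between -2.92 and -2.26 on the left and between -0.28 and 0.55 on the right.

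After an operation on P7, none of the 3 miRNAs was called between MI and sham hearts at 21 days, in libraries that the choice did not use. MiR-582-3p stood at 179, 216 and 151 CPM in MI P7 hearts, against 186, 353 and 125 CPM in sham P7 hearts. MiR-582-5p stood at 24.4, 31.1 and 59.0 CPM in MI P7 hearts, against 31.0, 58.4 and 24.5 CPM in sham P7 hearts. MiR-184-3p stood at 9.35, 17.6 and 19.2 CPM in MI P7 hearts, against 6.50, 17.5 and 7.48 CPM in sham P7 hearts. The groups overlapped for each, and sham P7 replicate 2 was the highest sham P7 library for all 3.

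Here 0 of the 3 were called, whereas 22.1% of the 598 miRNAs passed the same threshold (132 called, 79 higher and 53 lower in MI P7). The log2 fold change of miR-582-3p was -0.28 ± 0.36 (SE, 95% interval -1.04 to 0.48, edgeR adjusted p = 0.585). That of miR-582-5p was 0.01 ± 0.36 (interval -0.76 to 0.78, adjusted p = 0.991 in edgeR). That of miR-184-3p was 0.55 ± 0.37 (interval -0.24 to 1.34, adjusted p = 0.294 in edgeR). These intervals leave room for changes of the sizes they span. Without sham P7 replicate 2 the log2 fold change of miR-184-3p was 1.16 with an adjusted p of 0.0373 in edgeR, so that 1 library decided its call.

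The 9 libraries of 21 days other than MI P1 ranged from 115 to 353 CPM for miR-582-3p, from 21.4 to 59.0 CPM for miR-582-5p and from 6.50 to 19.2 CPM for miR-184-3p. The lowest of these 9 exceeded the highest MI P1 library 3.70-fold for miR-582-3p, 4.45-fold for miR-582-5p and 2.87-fold for miR-184-3p. The MI P1 and sham P1 libraries chose the miRNAs, so these gaps are a description. In order of the mean, miR-582-3p stood at 221 ± 118 CPM in sham P7, 191 ± 78.2 in sham P1, 182 ± 32.3 in MI P7 and 25.3 ± 5.06 in MI P1. MiR-582-5p stood at 38.1 ± 18.4 CPM in MI P7, 37.9 ± 18.0 in sham P7, 31.4 ± 9.41 in sham P1 and 4.37 ± 0.379 in MI P1. MiR-184-3p stood at 15.4 ± 5.29 CPM in MI P7, 10.5 ± 6.09 in sham P7, 10.1 ± 3.07 in sham P1 and 2.10 ± 0.271 in MI P1 (SD, n = 3 per group throughout). Among the 3 upper groups the ranges of neighbours in each order overlapped. MI P1, for whose low values the miRNAs were chosen, lay apart.

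Comparisons that reuse the P1 libraries are given as values only, since those libraries chose the miRNAs. The MI effect at P7 minus that at P1 was 2.64 ± 0.51 for miR-582-3p, 2.85 ± 0.53 for miR-582-5p and 2.80 ± 0.54 for miR-184-3p on the log2 scale (SE). Sham P7 over sham P1 hearts, at 28 against 22 days of age, gave log2 fold changes of 0.21 ± 0.35, 0.27 ± 0.36 and 0.06 ± 0.37 for the same miRNAs. For each of the 3, the difference between the sham groups was smaller than its SE.

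**Figure D3:**
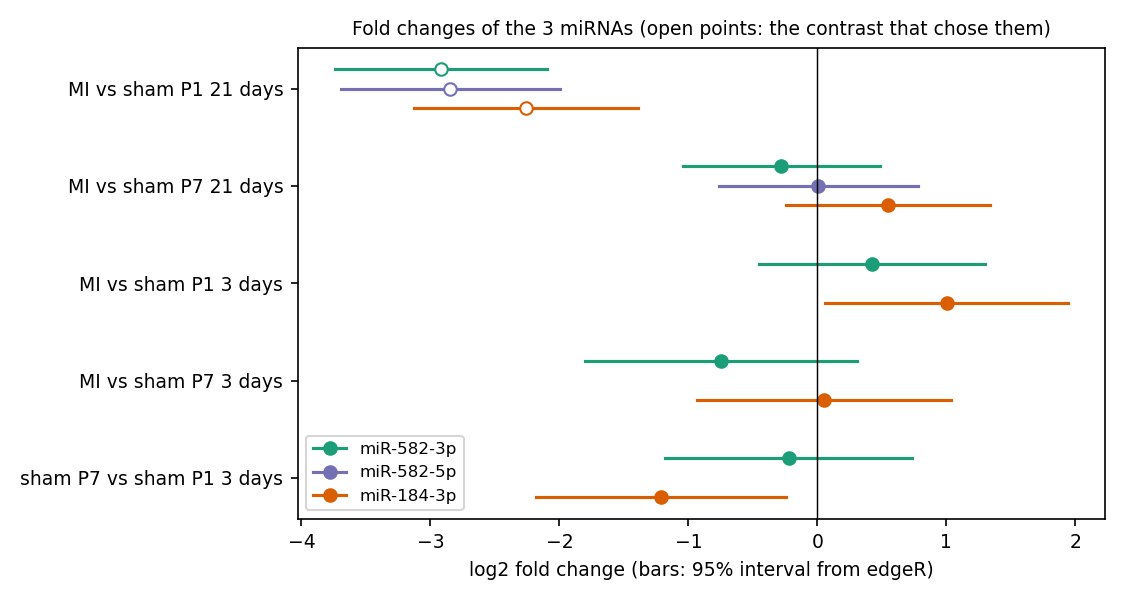
Log2 fold changes (x axis) with 95% intervals from edgeR for each comparison (y axis), MI over sham or sham P7 over sham P1. Open points mark the contrast that chose the miRNAs, where all 3 lie below -2. MiR-582-5p was not tested at 3 days.

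At 3 days after the operation, miR-184-3p had 10 to 1002 reads per library and was the best covered of the 3. MiR-184-3p stood at 112, 93.4, 158 and 79.7 CPM in MI P1 hearts, against 61.5, 87.1, 32.8 and 38.2 CPM in sham P1 hearts. The highest sham P1 library exceeded the lowest MI P1 library, so the groups overlapped. The log2 fold change was 1.00 ± 0.45 (SE, 95% interval 0.06 to 1.94, unadjusted p = 0.0385 and adjusted p = 0.114 in edgeR), and miR-184-3p was not called, where 18.4% of 446 miRNAs were (82 called, 6 higher and 76 lower in MI P1). The point estimate at P1 was above 0 at 3 days and below 0 at 21 days, where miR-184-3p was chosen for being lower. Between these follow-ups the age, the mice and the kit all differed, so no change over time can be read from the signs.

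The sham P1 level differed between the title codes, which also differed in depth. Deposited counts were 6.25 and 9.26 M under code 1078 and 1.56 and 2.65 M under code 1103, so code and depth cannot be told apart. The sham P1 libraries of code 1078 averaged 74.3 CPM of miR-184-3p and those of code 1103 averaged 35.5 CPM. Without the code 1103 libraries the log2 fold change in MI P1 was 0.51 (adjusted p = 0.633 in edgeR), and without sham P1 replicate 2, of code 1078, it was 1.30 (adjusted p = 0.0437 in edgeR). In limma-voom with title codes as random blocks it was 1.02 (adjusted p = 0.443). The fibroblast miRNAs miR-199a-5p, miR-214-3p and miR-21a-5p summed to 8310 to 12682 CPM in MI P1 hearts and 569 to 4771 CPM in sham P1 hearts, and miR-206-3p of skeletal muscle stood at 29.3 to 153 CPM in MI P1 hearts and 5.38 to 30.2 CPM in sham P1 hearts, and their part in the miR-184-3p levels was not tested.

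In the older hearts of 3 days, miR-184-3p was low in both groups. It stood at 27.7, 13.7, 41.7 and 15.4 CPM in MI P7 hearts, against 29.7, 12.6, 15.4 and 36.3 CPM in sham P7 hearts. The ranges were nearly the same, and the log2 fold change was 0.05 ± 0.46 (SE, 95% interval -0.93 to 1.03, adjusted p = 0.973 in edgeR). Of the 2 miRNAs tested here at 3 days, 0 were called in MI P7 hearts, against 5.61% of all miRNAs tested (25 called, 23 higher and 2 lower). The difference of MI effects, P7 minus P1, was -0.95 ± 0.64 for miR-184-3p (SE, 95% interval -2.31 to 0.41, adjusted p = 0.433 in edgeR). In that difference 0.0% of all 446 miRNAs were called by edgeR, with 71 at an unadjusted p under 0.05 and 6 called by DESeq2.

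**Figure D4:**
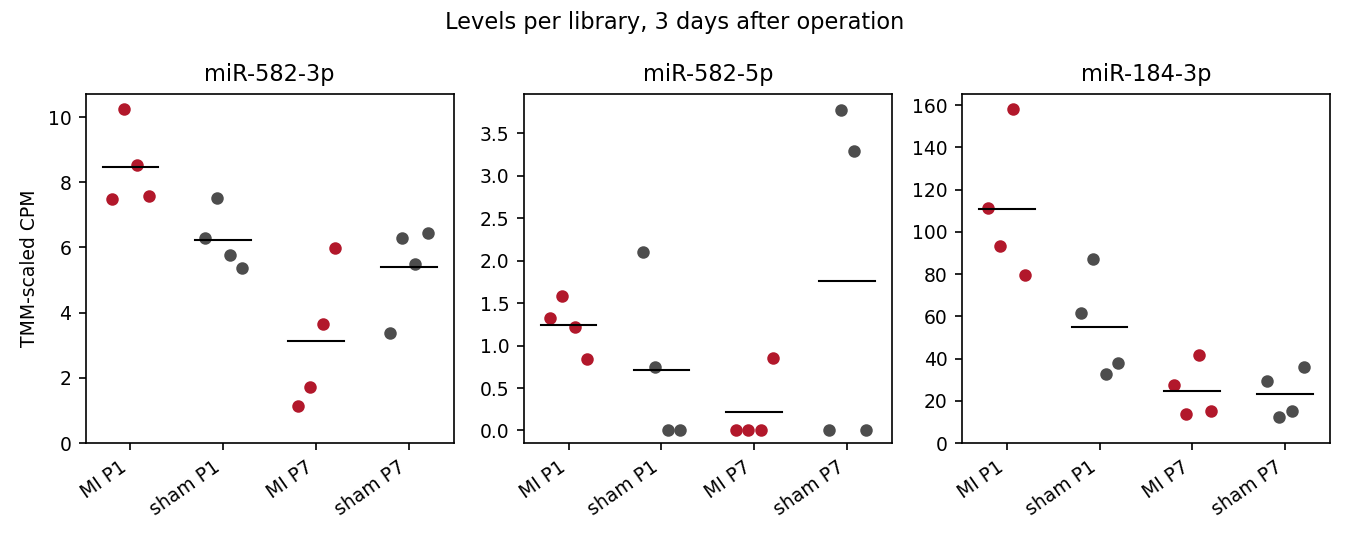
TMM-scaled CPM (y axis, linear, with a scale of its own for each miRNA) in each library at 3 days, by group (x axis). Points are libraries, 4 per group, and lines are means. MiR-184-3p lies between 79.7 and 158 CPM in MI P1 and between 12.6 and 41.7 CPM in the P7 groups, and miR-582-5p is at 0 in 7 libraries.

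Between the sham groups of 3 days, aged 10 and 4 days, miR-184-3p averaged 23.5 ± 11.4 CPM in sham P7 hearts and 54.9 ± 24.8 CPM in sham P1 hearts (SD, n = 4 each). The groups overlapped by 1 sham P7 library, at 36.3 CPM, which exceeded the lowest sham P1 library at 32.8 CPM. The log2 fold change was -1.21 ± 0.46 (SE, 95% interval -2.18 to -0.24, unadjusted p = 0.0173 and adjusted p = 0.0661 in edgeR), just outside the threshold that 22% of all miRNAs passed (98 called, 17 higher and 81 lower in sham P7). The median log2 fold change over all 446 miRNAs was itself -0.53 in this comparison. The call of miR-184-3p depended on the scaling and on single libraries of both sham groups. The log2 fold change was -1.49 with total count scaling (adjusted p = 0.0204 in edgeR) and -1.53 without the code 1103 libraries (adjusted p = 0.00515 in edgeR), but -0.91 in limma-voom with title codes as random blocks (adjusted p = 0.786). Leaving out 1 library also brought it past the threshold: -1.58 without sham P7 replicate 4 (adjusted p = 0.0440 in edgeR), -1.30 without sham P1 replicate 3 (adjusted p = 0.0349 in edgeR) and -1.39 without sham P1 replicate 4 (adjusted p = 0.0399 in edgeR).

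MiR-184-3p was also lower in the P7 than in the P1 MI hearts of 3 days, with means of 24.6 ± 13.0 CPM in MI P7 and 111 ± 34.2 CPM in MI P1 (SD, n = 4 each). These groups did not overlap, but the share of all miRNAs that likewise did not is not given here. This pair was not among the tests made. Its libraries also differed in depth, with deposited counts of 1.29 to 1.95 M in MI P7 and 5.61 to 13.0 M in MI P1. Summed eye and nervous system miRNAs were likewise lower at P7, at 159 to 242 CPM in MI P7 and 165 to 239 CPM in sham P7. They stood at 427 to 637 CPM in MI P1 and 355 to 591 CPM in sham P1, with 11 of 12 list members seen in each group. Of the 6 that could be tested, 0 were called between the sham groups, against 22% of all miRNAs tested. Endothelial miRNAs, miR-126a-3p and miR-126a-5p, summed to 9771 to 21411 CPM in MI P7 hearts and 83561 to 103944 CPM in MI P1 hearts. Between the sham groups the endothelial sums overlapped, at 12937 to 36678 CPM in sham P7 and 3913 to 158425 CPM in sham P1. The part of either list in the miR-184-3p levels was not tested.

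MiR-582-3p was scarce at 3 days, with 1 to 110 reads per library. It stood at 7.48, 10.3, 8.54 and 7.57 CPM in MI P1 hearts, against 6.29, 7.51, 5.78 and 5.38 CPM in sham P1 hearts. It stood at 1.15, 1.71, 3.66 and 5.97 CPM in MI P7 hearts, against 3.39, 6.29, 5.49 and 6.44 CPM in sham P7 hearts. The MI P1 libraries were high but touched the sham P1 range, and the MI P7 libraries overlapped the sham P7 range with only 15 reads in all 4 together.

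MiR-582-3p was called in none of the 3-day comparisons. The log2 fold change was 0.42 ± 0.41 for MI at P1 (SE, 95% interval -0.45 to 1.30, adjusted p = 0.514 in edgeR) and -0.75 ± 0.50 for MI at P7 (interval -1.80 to 0.31, adjusted p = 0.500 in edgeR). The difference of these effects was -1.17 ± 0.65 (interval -2.54 to 0.20, adjusted p = 0.347 in edgeR), and sham P7 over sham P1 gave -0.22 ± 0.45 (interval -1.18 to 0.73, adjusted p = 0.757 in edgeR). It entered the fit through the MI P1 group, in which all 4 libraries reached the filter's limit of 6.14 unscaled CPM, against 2 in sham P1, 1 in MI P7 and 0 in sham P7.

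MiR-582-5p did not pass the filter at 3 days and was not tested there. MI P1 hearts had 8, 17, 6 and 4 reads of it, against 9, 4, 0 and 0 reads in sham P1 hearts. MI P7 hearts had 0, 0, 0 and 1 reads, against 0, 3, 3 and 0 reads in sham P7 hearts. The 7 libraries at 0 all had at most 2.18 M counts after hairpins were merged, where a count of 0 allows up to 3 counts. That limit was 3.49, 3.17 and 2.36 unscaled CPM in the MI P7 libraries at 0, 2.02 and 1.38 in the sham P7 libraries at 0, and 2.86 and 1.69 in the sham P1 libraries at 0. This limit and the intervals on shares below cover counting error only, since it is not known whether PCR copies were merged.

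The arms of miR-582 were compared as a share of reads within each library, which does not depend on scaling. At 21 days miR-582-3p made up 85.0% ± 2.84 of both arms in MI P1 hearts and 85.5% ± 1.46 in sham P1 hearts, and 82.5% ± 9.11 in MI P7 hearts and 85.0% ± 1.25 in sham P7 hearts (SD, n = 3 each). The balance of the arms in MI P1 hearts was thus near that in sham P1 hearts, with a difference of -0.53 percentage points, although the level of both arms was several times lower. The exact two-sided permutation test between the P7 groups gave p = 1.0, but with 3 libraries in each group it could not go below 0.1 and so could not pass 0.05.

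One library departed from this balance. MI P7 replicate 3 had a miR-582-3p share of 71.9% (95% Wilson interval 70.6 to 73.3%), from 3094 reads of 3p and 1207 of 5p, while MI P7 replicates 1 and 2 had 88.0% and 87.4%. The other 11 libraries of 21 days lay between 82.9% and 88.2%. The same library was the highest of MI P7 for miR-582-5p and the lowest of MI P7 for miR-582-3p. Without it the mean share in MI P7 minus that in sham P7 was 2.68 percentage points, and with it -2.58 points.

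**Figure D5:**
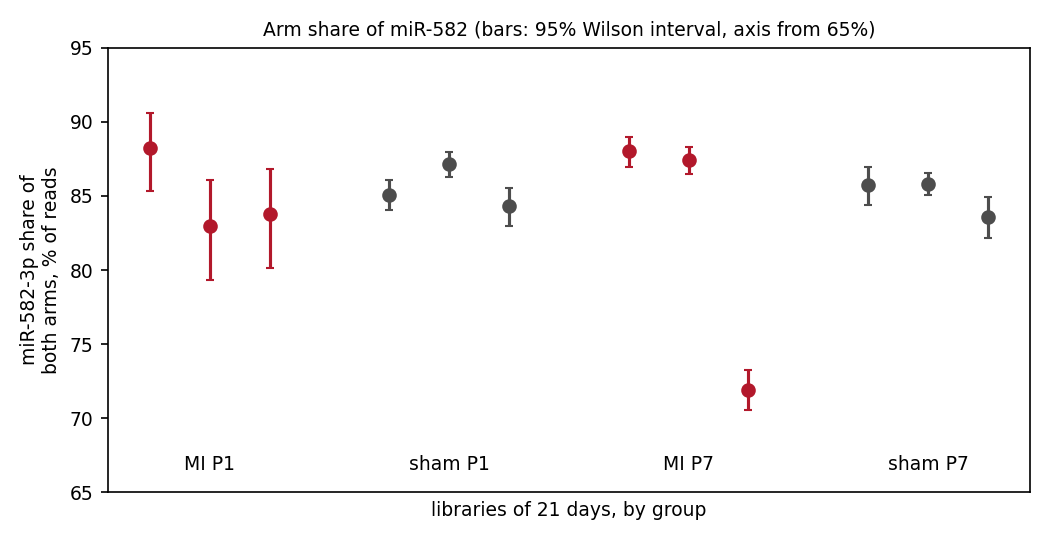
Share of miR-582-3p in the reads of both miR-582 arms (y axis, percent, starting at 65) in each library at 21 days, by group (x axis). Bars are 95% Wilson intervals, which cover counting error only. MI P7 replicate 3 lies at 71.9%, and the other 11 libraries at 82.9% or above.

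At 3 days the share rested on few reads, and 0 of 3 tests passed 0.05. MiR-582-3p made up 87.3% ± 2.12 of both arms in MI P1 hearts and 91.5% ± 11.8 in sham P1 hearts (SD, n = 4 each), from 268 and 96 reads of both arms in all. In MI P7 and sham P7 hearts the shares were 96.9% ± 6.25 and 81.3% ± 21.7, from only 16 and 31 reads. Each exact two-sided permutation test, of MI P1 over sham P1, MI P7 over sham P7 and sham P7 over sham P1, gave p = 0.429 (smallest possible 0.0286), or 0.571 adjusted over the 4 share tests.

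The other arm of miR-184, miR-184-5p, was nearly absent. It had 0 reads in all 12 libraries of 21 days and 5 reads in all at 3 days, which lay in 3 of the 4 MI P1 libraries. The share of the miR-184 arms was therefore not tested.

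Across the 12 libraries of 21 days the 3 miRNAs, which one contrast had chosen, followed one another. Pearson's r of log2(CPM + 1) was 0.954 between the miR-582 arms, 0.890 between miR-582-3p and miR-184-3p, and 0.935 between miR-582-5p and miR-184-3p. Over the 9 libraries without MI P1 the same values were 0.621, 0.424 and 0.669, so much of the likeness rested on the MI P1 libraries. Over the 16 libraries of 3 days they were 0.539, 0.558 and 0.0514. These are descriptions over libraries that share groups and depth.

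The miRNAs most like each of the 3 at 21 days, beside the 3 themselves, were miR-223-3p of myeloid cells for miR-582-3p (r = 0.743) and let-7b-5p for miR-582-5p (r = 0.787) and miR-184-3p (r = 0.895). Let-7b-5p stood at 1185 CPM in MI P1 hearts and 1419 CPM in sham P1 hearts, and miR-223-3p at 105 CPM in MI P1 hearts and 133 CPM in sham P1 hearts. At 3 days the closest to miR-184-3p were miR-30a-3p (r = 0.923), miR-450b-3p (r = 0.921) and miR-380-5p (r = 0.920), each of which had lower means in the P7 groups than in the P1 groups, as miR-184-3p did. MiR-582-3p was closest to miR-676-5p (r = 0.826), miR-194-5p (r = 0.814) and miR-107-3p (r = 0.813) at 3 days, and miR-582-5p to miR-10a-3p (r = 0.661), miR-1843a-5p (r = 0.647) and miR-106b-5p (r = 0.611).

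Marker miRNAs of heart cells and of other tissues were examined in the same libraries. Of 42 listed markers 37 could be tested at 21 days, and 0 were called between MI P1 and sham P1. Only 0.502% of all 598 miRNAs were called there, so a count of 0 says little about the markers. The eye and nervous system list, in whose tissues miR-184 is known, had a median log2 fold change of 0.08 over 9 tested members and summed to 219 to 420 CPM in MI P1 hearts and 126 to 282 CPM in sham P1 hearts, with all 12 seen. The epithelial list had a median of -0.51 over 7 members and summed to 135 to 145 CPM in MI P1 hearts and 93.6 to 157 CPM in sham P1 hearts. Cardiomyocyte miRNAs had a median of -0.02 over 5 members, with sums of 121850 to 141537 CPM in MI P1 hearts and 114143 to 141455 CPM in sham P1 hearts.

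Of the summed lists at 21 days, that of the erythroid miRNAs did not overlap between the P1 groups. It stood at 70394 to 75690 CPM in MI P1 hearts and 35747 to 59002 CPM in sham P1 hearts. Its largest member was miR-486a-5p, which averaged 64449 CPM after MI on P1, against 43393 CPM after the sham operation. The log2 fold change of miR-486a-5p was 0.57 ± 0.30 (SE, adjusted p = 0.697 in edgeR), and 0 of the 4 erythroid miRNAs were called. How often other sums likewise do not overlap is not given here. The part of the erythroid list in the levels of the 3 miRNAs was not tested. In the P7 comparison of 21 days, 9 of the 37 markers were called higher and 4 lower, where 22.1% of all 598 miRNAs were called. The higher ones included all 3 fibroblast miRNAs, whose median log2 fold change was 1.84, and 3 of 7 epithelial miRNAs. These 3 were scarce, with MI P7 means of 2.62 CPM for miR-200a-3p, 2.96 for miR-200b-3p and 2.61 for miR-429-3p. The summed epithelial list was instead lower in MI P7 hearts, at 113 to 157 CPM, against 164 to 177 CPM in sham P7 hearts. The cardiomyocyte sum was lower, at 55970 to 92571 CPM in MI P7 hearts and 133851 to 157386 CPM in sham P7 hearts. Most of that sum was miR-133a-3p, with means of 66440 CPM in MI P7 and 133590 CPM in sham P7. Of the 5 cardiomyocyte miRNAs only miR-133a-3p was called, and the list's median log2 fold change was -0.32. The levels of miR-582-3p, miR-582-5p and miR-184-3p overlapped between those same hearts.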

How the data were processed

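The 28 libraries hold small RNA of left ventricular wall. The authors deposited whole-number counts per pair of hairpin and mature miRNA (1614 pairs), without normalization. Per the submitters' processing notes, Bowtie2 2.2.2, edgeR and GRCm38 were used. Which counter and miRNA annotation were used, and whether molecular identifiers were read, is not given in the sources used here. Per the labels' protocols, 3-day libraries were made with the QIAseq kit and sequenced on a NextSeq500, and 21-day libraries with the TruSeq kit on a HiSeq2000.

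The highest count over hairpins was kept per mature name, which left 0.858 to 8.90 M counts (M, 1e6) per library at 3 days and 14.9 to 21.5 M at 21 days. For each follow-up separately, all 4 groups entered one edgeR 4.0.16 model in R 4.3.3, using TMM, filterByExpr (minimum count 10) and robust quasi-likelihood F tests. It held 446 miRNAs at 3 days (12 residual degrees of freedom) and 598 at 21 days (8 residual degrees of freedom). A miRNA is called where the Benjamini-Hochberg adjusted p lies under 0.05, and SE values are the log2 fold change divided by the square root of F. Arm shares were compared with exact permutation tests in SciPy 1.17.1. No 2 replicates agreed within sampling noise (lowest chi-square per degree of freedom 33.0).

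The members and lists were chosen with earlier results of these data known. Beside the 3 members, the text names miR-184-5p, the 3 miRNAs with the highest Pearson r to each member, the 2 lower miRNAs just outside the threshold, and members of marker lists; miR-3473e was added after its value was seen. Alternatives were DESeq2 1.42.0 size factors and Wald test, total count scaling, no filter, each library left out, a lane covariate, a replicate block, and title code 1103 left out or title code as a block in limma 3.58.1. On simulated counts, 4-fold changes were recovered for 91% (MI at P1) and 95% (MI at P7) of changed miRNAs among 598 at 21 days, and for 68% and 74% among 446 at 3 days. For 2-fold changes the shares were 63%, 70%, 23% and 19% in the same order. Far more miRNAs were changed in each simulation than were called for MI at P1 at 21 days, which makes the adjusted threshold easier to pass. No title code effect was simulated either, so these shares can overstate what was recoverable in the data.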

Additional observations from a re-analysis of the deposited data

Results flagged for a closer look

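Of 16 sets of 4 libraries (the levels of the 3 miRNAs and the arm share in each 3-day group), 2 held a library far from the others. Chance gives about 1 in 20 for continuous values, but in both sets the other 3 values were tied, so that any single read would stand out. Both came from the same read. In MI P7 hearts at 3 days, miR-582-5p stood at 0.854 CPM in replicate 4 and at 0 in the other 3 libraries, and the miR-582-3p share was 87.5% in replicate 4, from 8 reads of both arms, and 100% in the others. Groups of 3, which all groups of 21 days are, were not examined this way.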

How the results depend on the processing

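Under the 18 alternatives at 21 days, miR-582-3p and miR-582-5p passed the threshold for MI at P1 each time. That contrast chose them, so this is no further test. For MI at P7, miR-582-3p was at 0.054 with total count scaling and -0.54 to 0.26 with 1 library left out, miR-582-5p at -0.40 to 0.48 and miR-184-3p at 0.33 to 1.16. At 3 days, miR-184-3p was at 0.68 to 1.30 with 1 library left out for MI at P1. For MI at P7 it was at -0.055 with DESeq2 size factors, -0.061 with the DESeq2 test, -0.35 with the title code block, and -0.38 to 0.35 with 1 library left out. For sham P7 over sham P1 it was at -1.49 with total count scaling, -1.53 without code 1103 and -1.58 to -0.92 with 1 library left out, and miR-582-3p at -0.39 to 0.010. Without 1 library, the share of miR-582-3p at P7 at 21 days differed by -5.37 to 2.68 points.

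The count of miRNAs called moved more. MI at P1 at 21 days gave 12 without a filter, and MI at P7 gave 60 to 190 with 1 library left out. At 3 days, MI at P1 gave 32 with total count scaling, 15 without a filter, 0 without code 1103, 0 with the code block and 0 to 164 with 1 library left out. MI at P7 gave 16 with DESeq2 size factors, 58 with total count scaling, 8 without a filter, 52 with DESeq2, 93 without code 1103, 0 with the code block and 13 to 29 with 1 library left out. The difference of effects gave 6 with DESeq2 and 1 without code 1103. Sham P7 over sham P1 gave 352 without code 1103, 0 with the code block and 17 to 185 with 1 library left out. The causes were not tested.

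With the title number as a replicate block at 21 days, MI at P7 gave 85 calls, miR-582-5p was at -0.018 and miR-184-3p at P1 had an adjusted p of 0.12 in edgeR. Of 15 same-number pairs of libraries, 4 deviated together with a correlation over 0.1 (range -0.28 to 0.28). Pairs with different numbers reached -0.42 and 0.47, so these correlations cannot decide whether the numbers pair the libraries. Total count scaling moved the median of all miRNAs to 0.38 for MI at P7 at 21 days, -0.20 at P1, and at 3 days 0.33 for MI at P1, 0.47 for MI at P7 and -0.82 between sham groups. DESeq2 size factors moved these 3-day medians to 0.15, -0.15 and -0.37. At 3 days, depth limits both miR-582 arms, with at most 110 and 17 reads per library.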
